A study of Mus musculus with 6 samples.

Results

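The DUSP-family MAP kinase phosphatases described here are 8 genes: Dusp1, Dusp2, Dusp3, Dusp4, Dusp5, Dusp6, Dusp7 and Dusp16. They were picked by name from the 18194 genes on the array, as probe sets whose platform annotation gave 1 symbol, that of a member. Where a gene had several such probe sets, the one with the highest mean over the 6 arrays stood for it. All 8 genes were among the 13587 genes above the floor, a limit met when a gene's value on any 1 array is no lower than the median probe set of that array. The rule uses no measured difference between conditions, but the 8 genes were chosen with earlier results of these data known.

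The study profiled peritoneal macrophages drawn into the abdominal cavity with thioglycollate, an irritant. One group came from wild-type mice, and the other from LysM-Cre+;Akirin2fl/fl mice (Akirin2 KO below), in which Cre recombinase made from the lysozyme 2 locus deletes floxed Akirin2 in myeloid cells; both were of the strain background C57BL/6 x 129Sv. Akirin2 encodes a small nuclear protein that links transcription factors to chromatin remodelling complexes. Cells of each genotype were left unstimulated (0 h) or received lipopolysaccharide (LPS, a bacterial cell wall component that activates TLR4) at 100 ng/ml for 2 h or 4 h. One array was hybridised per condition, 6 in all, without replicates. The labels give neither the age and sex of the mice, nor how many mice gave each sample, nor whether Cre was present in the wild-type mice.

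MAP kinases (ERK, JNK and p38) are switched on by phosphorylation of a threonine and a tyrosine in their activation loop, and dual-specificity phosphatases switch them off by removing both phosphates. The inducible nuclear enzymes are Dusp1 (MKP-1), Dusp2 (PAC-1), Dusp4 (MKP-2) and Dusp5, the last of which is selective for ERK. Dusp6 (MKP-3) and Dusp7 are cytoplasmic and act on ERK, Dusp16 (MKP-7) acts on JNK and p38, and Dusp3 (VHR) is a small enzyme that lacks the MAP kinase-binding domain of the others. In macrophages, Dusp1 is known as a brake on p38 and JNK after TLR stimulation.

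Values are deposited log2 expression values per probe set, on which a difference of 1 is 2-fold. The array medians lay between 3.18 and 3.23, so a value near 3.2 is at the level of the median probe set. In the library check, Akirin2 read 7.33 to 7.47 on the wild-type arrays and 4.91 to 5.54 on the Akirin2 KO arrays, a difference of -2.20 (SE 0.14, adjusted p = 0.000328 by limma), so signal remained above the array median in the KO. Lyz2, whose locus drives Cre, read 12.01 to 12.20 on all arrays, and all 12 measured macrophage markers were above the floor. Of these, 3 were lower in KO cells (C1qa, Fcgr1 and C1qc), against 1.06% of all genes. At 4 h of LPS 5 of them were lower and 1, Cd14, higher, against 7.61% and 7.76% of all genes. Markers of some other cell types differed between the arrays. The summed linear signal of all 10 mesothelial and fibroblast markers, 9 of them above the floor (Lum was not), was 737 to 797 on wild-type arrays and 459 to 541 on KO arrays. Col1a1, Col1a2 and Col3a1 made up most of this sum, and read 8.44, 7.41 and 6.84 on the wild-type 0 h array. Of the 9 above the floor, only Col1a2 passed the test between genotypes (-0.83, adjusted p = 0.0372 by limma), and Upk3b differed by 0.14. The summed linear signal of all 9 neutrophil markers on the array was 383 at 0 h and 721 at 4 h in wild-type cells, and 388 and 612 in KO cells. Of the 9, 6 were above the floor, and Ngp, Ltf and Elane were not. Only S100a8 and Mmp9 of the 6 above the floor passed the 4 h test, both higher (1.26 and 1.14), while S100a9 differed by -0.46 and Mmp8 by 0.0074. The sum of all 6 dendritic cell markers on the array was 247 at 0 h and 600 at 4 h in wild-type cells, and 385 and 670 in KO cells. Of these, Itgax and Zbtb46 were above the floor, and Flt3, Xcr1, Cd209a and Ccr7 were not. Most of the sum came from Itgax. It passed the 4 h test (1.15, adjusted p = 0.00282 by limma), and Zbtb46 did not (0.41, adjusted p = 0.0989). The 3' minus 5' signal of the Actb control probe sets, a measure of RNA integrity and amplification, was 4.09 to 4.22 on wild-type and 4.36 to 4.64 on KO arrays. For the Gapdh control probe sets it was 4.33 to 4.42 on wild-type and 4.34 to 4.52 on KO arrays, so the genotypes overlapped there. The part of these shifts in the results below was not tested. In such bulk samples, fewer cells of a type and less RNA per cell cannot be told apart.

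The promoters of 7 of the 8 genes were found in a RefSeq table of GRCm38.p6; Dusp4 was not. The 250 bases upstream of the annotated start were searched on both strands for the cyclic AMP response element TGACGTCA, its shorter core TGACG, the AP-1 site TGANTCA and the CArG box, the element bound by serum response factor. A full element also contains the core. Among 32851 such windows of all genes, 1.55% held the full element, 17.8% the core, 6.75% an AP-1 site and 1.47% a CArG box. The promoters shown are those of Dusp1 and Dusp5 because they hold the full element or CArG boxes, that of Dusp16 for its sustained rise and that of Dusp3 for its fall after LPS. Capitals mark full elements, cores and CArG boxes, and each sequence runs 5′ to 3′ on the gene's strand, ending at the base before the start.
Dusp1, chr17:26508473-26508722, minus strand: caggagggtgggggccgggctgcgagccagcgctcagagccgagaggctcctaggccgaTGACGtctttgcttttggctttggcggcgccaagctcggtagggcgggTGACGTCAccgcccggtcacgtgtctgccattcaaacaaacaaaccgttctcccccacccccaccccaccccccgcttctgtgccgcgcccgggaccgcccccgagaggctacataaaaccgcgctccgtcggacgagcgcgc
Dusp5, chr19:53528895-53529144, plus strand: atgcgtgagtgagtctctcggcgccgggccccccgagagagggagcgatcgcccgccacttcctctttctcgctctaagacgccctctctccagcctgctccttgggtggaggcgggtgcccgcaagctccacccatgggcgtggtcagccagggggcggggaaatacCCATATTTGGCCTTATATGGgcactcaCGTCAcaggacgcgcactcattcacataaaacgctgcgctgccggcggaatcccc
Dusp16, chr6:134792629-134792878, minus strand: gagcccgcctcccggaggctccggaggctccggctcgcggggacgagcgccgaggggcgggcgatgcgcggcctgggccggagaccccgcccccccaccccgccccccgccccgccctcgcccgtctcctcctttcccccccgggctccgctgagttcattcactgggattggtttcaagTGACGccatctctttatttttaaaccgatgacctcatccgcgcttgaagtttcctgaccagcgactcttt
Dusp3, chr11:101984792-101985041, minus strand: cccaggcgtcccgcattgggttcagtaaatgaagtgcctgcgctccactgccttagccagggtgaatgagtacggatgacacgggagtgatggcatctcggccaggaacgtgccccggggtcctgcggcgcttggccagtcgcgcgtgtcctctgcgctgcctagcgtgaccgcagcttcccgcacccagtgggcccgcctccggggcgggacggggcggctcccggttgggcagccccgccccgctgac
The Dusp1 window held 1 full element, from 143 to 136 bases before the start, and a further core from 191 to 187. The Dusp5 window held 2 adjacent CArG boxes, from 82 to 73 and from 72 to 63 bases before the start, and a core from 55 to 51. The Dusp16 window held 1 core, from 70 to 66. None of these motifs were found in the windows of Dusp2, Dusp3, Dusp6 and Dusp7, and no window of the 7 held an AP-1 site. A match is a description of the letters and does not show that a factor binds.

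LPS raised Dusp4, Dusp5 and Dusp16 and lowered Dusp3, with different courses over time. At 2 h, the 3 induced genes were 2.86-fold to 3.15-fold above 0 h in the fit over both genotypes. By 4 h, Dusp4 and Dusp16 were still raised, Dusp5 had fallen from its 2 h level, and Dusp3 was 0.560 times its 0 h level. The calls for Dusp3 and for the fall of Dusp5 after 2 h did not hold under all settings or without each array, as given below. Dusp1, Dusp2, Dusp6 and Dusp7 passed no LPS test in that fit in either direction. Under some other settings more members were called lower, as given below. The tests came from a limma fit of LPS time and genotype to the 6 arrays, with Benjamini-Hochberg adjustment over the 13587 genes and a threshold of 0.05. In it the difference between the genotypes' responses serves as the error, so its p-values do not measure the spread between mice.

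**Figure D1:**
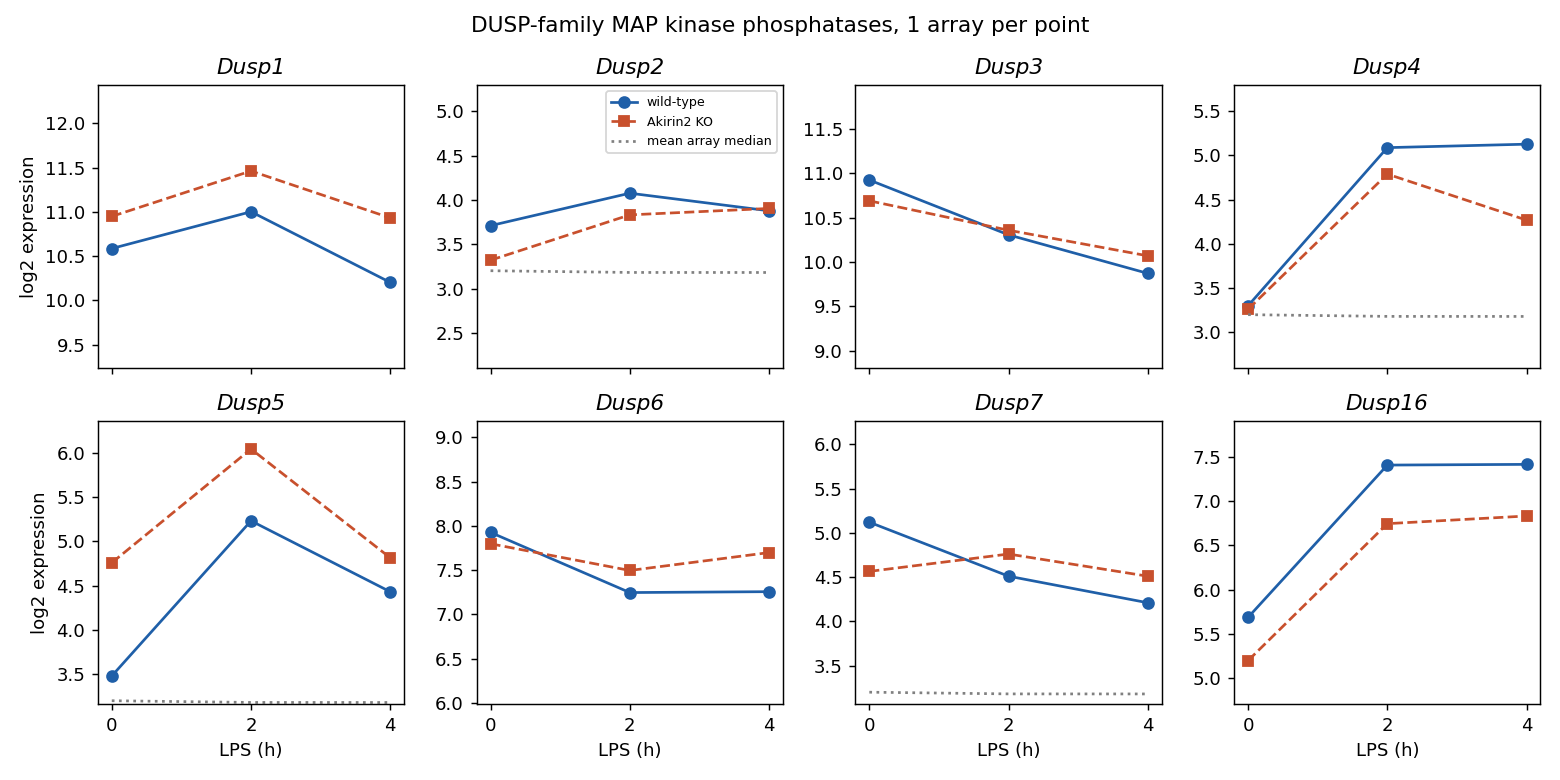
Deposited log2 expression (y axis) of the 8 phosphatase genes against hours of LPS (x axis), 1 array per point; blue circles are wild-type, orange squares are Akirin2 KO, and the dotted line, where it falls within a panel, is the mean of the 2 array medians at that time. Dusp4 and Dusp16 rise by 2 h in both genotypes, Dusp5 peaks at 2 h, and Dusp3 is lowest at 4 h.

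Among the inducible nuclear enzymes, Dusp4 read 3.30, 5.09 and 5.13 at 0, 2 and 4 h in wild-type cells and 3.26, 4.79 and 4.27 in Akirin2 KO cells. Both unstimulated arrays were close to the array median, and the 4 stimulated arrays were all above them. The rise was 1.65 at 2 h (SE 0.20, adjusted p = 0.00211) and 1.41 at 4 h (SE 0.20, adjusted p = 0.00218).

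Dusp5, the ERK-selective nuclear phosphatase, read 3.48, 5.23 and 4.43 in wild-type cells and 4.76, 6.04 and 4.81 in KO cells. It was highest at 2 h in both genotypes, and the 4 h value of the KO array was within 0.056 of its own 0 h value. The rise at 2 h was 1.52 (SE 0.21, adjusted p = 0.00389), whereas the 4 h value was 0.50 above 0 h (SE 0.21, adjusted p = 0.162). From 2 h to 4 h it fell by 1.01 (SE 0.21, adjusted p = 0.0478). That call is near the threshold. It ended under 5 other settings of the floor, the probe sets or the scaling (adjusted p = 0.0519 to 0.128), and without the wild-type 2 h, KO 2 h or KO 4 h array (adjusted p = 0.178, 0.129 and 0.175); the direction was the same in each.

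Dusp1, the brake on p38 and JNK, read 10.59, 11.00 and 10.20 in wild-type cells and 10.95, 11.46 and 10.93 in KO cells. The 2 h array was the highest in each genotype, by 0.42 over 0 h in wild-type and by 0.51 in KO. The fitted difference at 2 h was 0.46 (SE 0.16, adjusted p = 0.138), and that from 2 h to 4 h was -0.66 (SE 0.16, adjusted p = 0.0786), so neither passed. The first sampled time after LPS was 2 h, and any earlier peak lies outside these arrays.

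Dusp2, an inducible nuclear enzyme found mainly in blood cells, read 3.71, 4.08 and 3.88 in wild-type cells and 3.32, 3.83 and 3.90 in KO cells. All 6 values lay above the array medians by less than 1. The differences from 0 h were 0.44 at 2 h (SE 0.16, adjusted p = 0.168) and 0.38 at 4 h (SE 0.16, adjusted p = 0.172).

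Dusp16, which acts on JNK and p38, read 5.69, 7.41 and 7.41 in wild-type cells and 5.20, 6.74 and 6.83 in KO cells. Its 2 h and 4 h levels were close within each genotype, 0.0079 apart in wild-type and 0.086 apart in KO. The rise was 1.63 at 2 h (SE 0.15, adjusted p = 0.000402) and 1.68 at 4 h (SE 0.15, adjusted p = 0.000163), and the 4 h minus 2 h difference was 0.047 (95% interval -0.29 to 0.38). A second probe set, 1440615_at, read 4.21, 5.12 and 4.73 in wild-type cells and 4.55, 4.75 and 4.34 in KO cells. Its differences from 0 h were 0.55 at 2 h (adjusted p = 0.187) and 0.15 at 4 h (adjusted p = 0.717) in limma over all 30406 probe sets above the floor, so neither passed. With the mean of both probe sets the rise of Dusp16 was 1.09 at 2 h (adjusted p = 0.00505) and 0.92 at 4 h (adjusted p = 0.00565).

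Dusp3, the small phosphatase without a MAP kinase-binding domain, read 10.93, 10.31 and 9.87 in wild-type cells and 10.69, 10.36 and 10.07 in KO cells. The value was lower at each later time in both genotypes, and the 4 h arrays lay below the 0 h arrays without overlap. The fall was 0.84 at 4 h by limma (log2 difference -0.84, SE 0.16, adjusted p = 0.00965), and the 2 h difference was -0.48 (SE 0.16, adjusted p = 0.140). The call at 4 h ended without the wild-type 4 h array (-0.69, adjusted p = 0.0704) and with the mean of the gene's 3 probe sets (-0.34, adjusted p = 0.191). Of the others, 1456769_at read 5.41, 5.27 and 4.65 in wild-type cells and 4.25, 4.95 and 4.59 in KO cells, with a 4 h difference of -0.21 (adjusted p = 0.669). Probe set 1425608_at read 2.94 to 3.30, at the array median, and differed by 0.036 at 4 h (adjusted p = 0.926).

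Dusp6, the cytoplasmic ERK phosphatase, read 7.93, 7.25 and 7.26 in wild-type cells and 7.80, 7.50 and 7.70 in KO cells. The 0 h array was the highest in each genotype, but the difference was -0.49 at 2 h (SE 0.18, adjusted p = 0.157) and -0.38 at 4 h (SE 0.18, adjusted p = 0.198). Dusp7, its close relative, read 5.12, 4.51 and 4.21 in wild-type cells and 4.56, 4.76 and 4.51 in KO cells. Only the wild-type series was lower at each later time, and the fitted difference at 4 h was -0.48 (SE 0.22, adjusted p = 0.197).

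**Figure D2:**
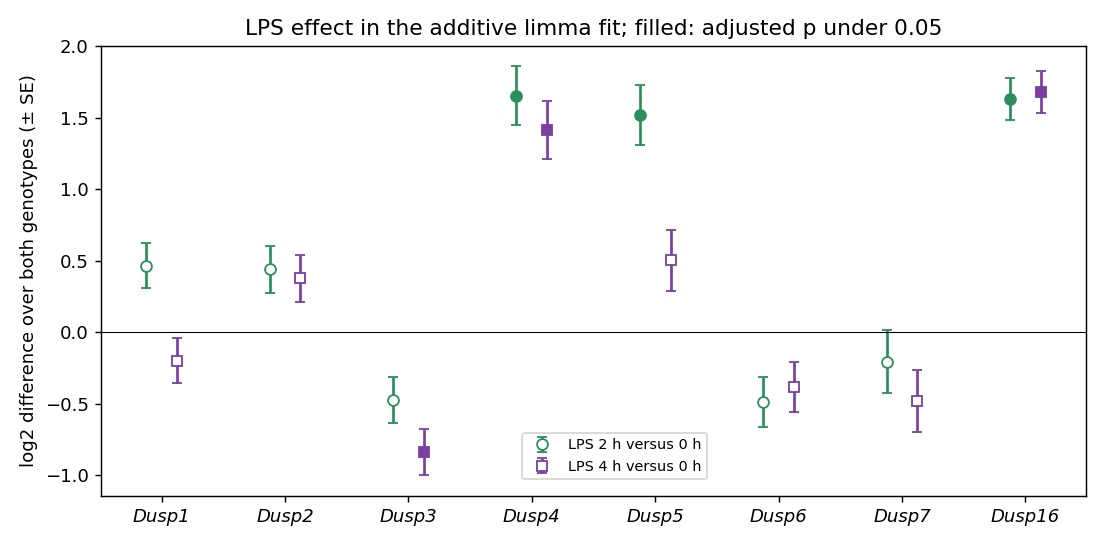
Fitted log2 difference from 0 h over both genotypes (y axis, ± SE from limma) for the 8 genes at 2 h (green circles) and 4 h (purple squares) of LPS; filled symbols have an adjusted p under 0.05 and open symbols do not. Dusp4 and Dusp16 are filled at both times, Dusp5 only at 2 h (1.52), and Dusp3 only at 4 h (-0.84).

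As a group, 3 of 8 genes were higher at 2 h in the limma fit, against 3.96% of the 13587 genes, and 0 were lower, against 2.89%. At an unadjusted p under 0.05, 5 were higher and 2 lower, against 8.86% and 11.4% of all genes. At 4 h, 2 of 8 were higher, against 7.76% of all genes, and 1 was lower, against 7.61%; at an unadjusted p under 0.05, 4 were higher and 1 lower, against 13.3% and 14.8%. From 2 h to 4 h, 0 of 8 were higher, against 1.56%, and 1 was lower, against 1.11%; at an unadjusted p under 0.05, 0 were higher and 2 lower, against 6.8% and 6.2%. The members' median difference was 0.45 at 2 h and 0.088 at 4 h, beside -0.042 and -0.026 over all genes. From 2 h to 4 h it was -0.26, beside 0.0086. Because the 8 genes were chosen with earlier results of these data known, these counts are a description only.

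The single arrays of each genotype can be compared by size only, with no test. In wild-type cells at 2 h, Dusp4, Dusp5 and Dusp16 were at least 2-fold above 0 h, by 3.44-fold, 3.36-fold and 3.29-fold, a count of 3 of 8 against 2.26% of all genes; 0 were 2-fold lower, against 2.19%. The same 3 genes passed this size in KO cells, by 2.88-fold, 2.44-fold and 2.92-fold, against 2.44% of all genes, and 0 were 2-fold lower, against 0.905%. The size of Dusp16 in KO cells depends on the probe set: 1440615_at moved by 0.20 at 2 h and -0.21 at 4 h, and with the mean of both probe sets Dusp16 was below 2-fold in KO cells at both times. At 4 h in wild-type cells, Dusp4 (3.54-fold) and Dusp16 (3.31-fold) were higher, against 3.72%, and Dusp3 (0.482 times) was lower, against 4.75%. At 4 h in KO cells, Dusp4 (2.01-fold) and Dusp16 (3.10-fold) were higher, against 4.07%, and 0 were lower, against 2.47%. Between 2 h and 4 h, 0 of 8 genes were 2-fold apart in wild-type cells, against 2.42% of all genes in either direction. In KO cells 1 was, Dusp5 at 0.427 times its 2 h level, against 1.52%.

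The design also asks whether loss of Akirin2 changed these genes. None of the 8 passed the limma test for a difference between genotypes, against 1.95% of all genes in either direction. At an unadjusted p under 0.05, 2 were higher in Akirin2 KO cells (Dusp1 and Dusp5) and 2 were lower (Dusp4 and Dusp16), against 7.16% and 8.23% of all genes. This test asks whether a difference was constant over the 3 times, and it cannot separate genotype from differences between the mice or preparations. With eBayes set to a trend and robust, Dusp1, Dusp5 (both higher) and Dusp16 (lower) passed (adjusted p = 1.9e-05, 0.00712 and 0.00465). How many of all genes passed under this or the other settings below was not counted. These calls therefore have no share of all genes beside them. The members' median difference was 0.0016, beside -0.011 over all genes.

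Dusp5 was higher in KO cells at all 3 times, by 1.28, 0.81 and 0.38 at 0, 2 and 4 h. The difference was largest in unstimulated cells, where it was 2.42-fold. The fitted difference was 0.82 (SE 0.17, 95% interval 0.43 to 1.22, adjusted p = 0.0579). Without the 4 h arrays it was 1.04 and passed (adjusted p = 0.00728); without the 0 h arrays it was 0.60 and passed (adjusted p = 0.0474).

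Dusp1 was higher in KO cells at all 3 times as well, by 0.36, 0.46 and 0.73. The fitted difference of 0.52 (SE 0.13, 95% interval 0.22 to 0.81) had an adjusted p of 0.0971. It passed without the 0 h arrays (0.59, adjusted p = 0.0383).

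Dusp16 was lower in KO cells at all 3 times, by a log2 difference of -0.49, -0.66 and -0.58. The fitted difference was -0.58 (SE 0.12, 95% interval -0.85 to -0.30, adjusted p = 0.0563). It passed without the 0 h arrays (-0.62, adjusted p = 0.0265) and, just, with a floor at the 75th percentile of each array (adjusted p = 0.0492). Probe set 1440615_at of the same gene differed by 0.33 at 0 h, -0.37 at 2 h and -0.39 at 4 h (fitted -0.14, adjusted p = 0.776), so its direction at 0 h was the opposite.

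Dusp4 differed between genotypes by -0.039 at 0 h, -0.30 at 2 h and -0.86 at 4 h. The gap was widest at 4 h, where wild-type cells kept the 2 h level (5.13 against 5.09) and KO cells read 4.27 against 4.79. The fitted difference over the times was -0.40 (SE 0.17, adjusted p = 0.302).

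The remaining members had smaller fitted differences. The fitted genotype difference was -0.20 for Dusp2 (95% interval -0.50 to 0.10), 0.0051 for Dusp3 (-0.30 to 0.31), 0.19 for Dusp6 (-0.14 to 0.52) and -0.0018 for Dusp7 (-0.41 to 0.41), with adjusted p from 0.522 to 0.998. For Dusp3, probe set 1456769_at read 4.25 in unstimulated KO cells and 5.41 in unstimulated wild-type cells, while the chosen probe set read 10.69 and 10.93. For Dusp7, the single arrays differed by -0.56, 0.25 and 0.30 at 0, 2 and 4 h, so the fitted value averages opposite signs. Its probe set 1452097_a_at differed by -0.87, -0.23 and -0.19 (fitted -0.43, adjusted p = 0.286 by limma). The fitted difference of 1460393_a_at was -0.12 (adjusted p = 0.774). By size, 1 of 8 genes was 2-fold apart between genotypes at 0 h (Dusp5, higher), against 1.93% of all genes. At 2 h and at 4 h, 0 of 8 were, against 0.949% and 1.45%.

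**Figure D3:**
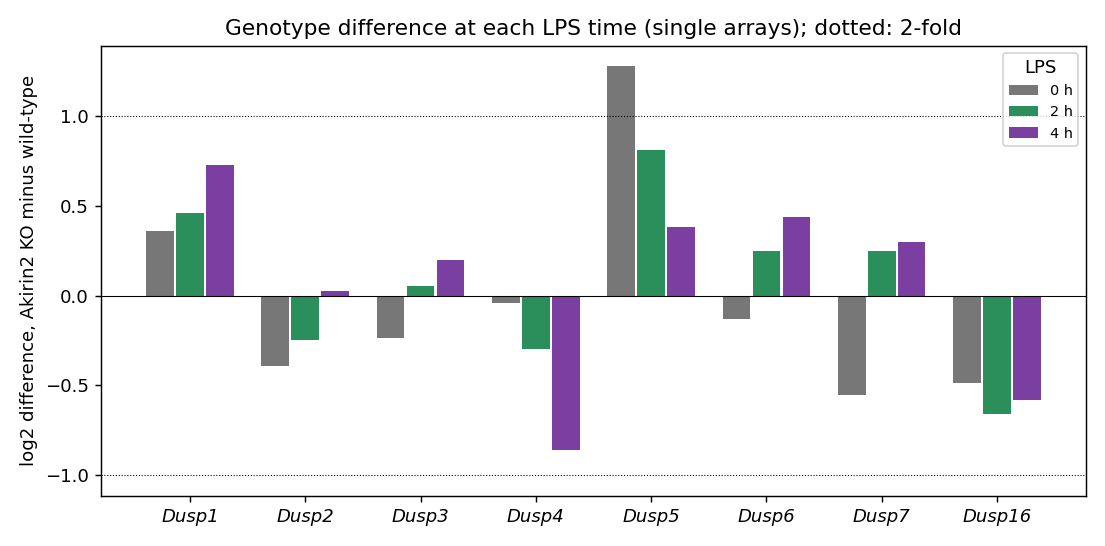
Log2 difference, Akirin2 KO minus wild-type (y axis), between single arrays for the 8 genes at 0 h (grey), 2 h (green) and 4 h (purple) of LPS, with dotted lines at 2-fold and no error bars because each bar compares 1 array with 1 array. Dusp1 and Dusp5 are above 0 and Dusp16 below 0 at all 3 times; the Dusp5 bar at 0 h (1.28) is the one past 2-fold.

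Whether the LPS response itself differed between genotypes was tested with a second limma fit, as the interaction of genotype with stimulation (2 h and 4 h together). None of the 8 passed, against 0.0294% of all genes; at an unadjusted p under 0.05, Dusp7 was higher and Dusp5 lower, so 1 in each direction, against 8.56% and 4.24% of all genes. For Dusp7 the estimate was 0.83 (SE 0.25, 95% interval 0.29 to 1.37, adjusted p = 0.203): from 0 h to 2 h it moved by -0.61 in wild-type and by 0.20 in KO cells, and from 0 h to 4 h by -0.91 and -0.054. Its second probe set, 1452097_a_at, read 4.45, 4.05 and 3.79 in wild-type cells and 3.58, 3.83 and 3.60 in KO cells, with an estimate of 0.67 (adjusted p = 0.324). The third, 1460393_a_at, stayed between 2.94 and 3.31. For Dusp5 the estimate was -0.68 (SE 0.27, 95% interval -1.26 to -0.097, adjusted p = 0.315). For Dusp4 it was -0.54 (adjusted p = 0.454) and for Dusp16 -0.13 (95% interval -0.67 to 0.41, adjusted p = 0.868). The unstimulated arrays enter every one of these differences, since both LPS times of a genotype share its 1 array at 0 h. The members' median estimate was 0.26, beside 0.10 over all genes.

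**Figure D4:**
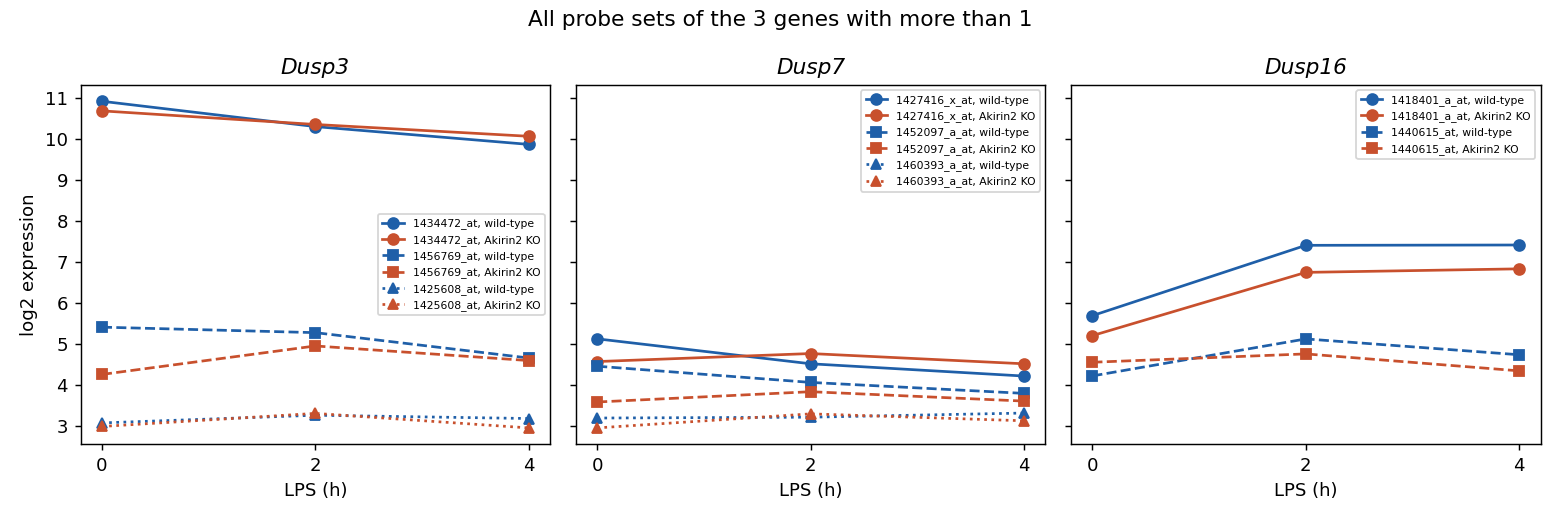
Deposited log2 expression (y axis) against hours of LPS (x axis) for every probe set that names Dusp3, Dusp7 or Dusp16 alone, 1 array per point, in wild-type (blue) and Akirin2 KO (orange) cells; marker shape and line style tell the probe sets apart. For Dusp3 and Dusp16 the probe set with the highest mean passed the test at 4 h of LPS while the others of the gene did not, and 1 probe set each of Dusp3 and Dusp7 stays near 3.2.

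Other genes of the MAP kinase pathway were read in the same fit, as lists of the kinases, their activators and their targets. Of 8 MAP kinases, 0 passed at 2 h (against 3.96% of all genes higher) and 1 was higher at 4 h, Mapk14, which encodes p38-alpha (0.76, adjusted p = 0.0110 by limma). Of 6 MAP kinase kinases, 0 passed at 2 h and 1 was higher at 4 h, the ERK activator Map2k1 (0.53, adjusted p = 0.0449). Of 15 genes of the tier above, Map3k8, which encodes the ERK-pathway kinase Tpl2, was higher at 2 h (0.67, adjusted p = 0.0365). At 4 h Map3k5 and Map3k8 were higher (0.83 and 0.63), and 4 were lower, Map3k1, Map3k3, Map3k2 and Braf (-0.74, -0.74, -0.60 and -0.56), against 7.76% of all genes higher and 7.61% lower. The list medians at 2 h were -0.077, 0.083 and 0.028 for the 3 tiers, beside -0.042 over all genes. With the mean of all probe sets of a gene, the 4 h calls of Mapk14, Map3k1, Map3k2, Map3k3 and Braf ended, and with arrays centred that of Map2k1 did. No gene of these 3 lists passed the genotype test, against 1.95% of all genes in either direction.

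Among 7 kinases that MAP kinases activate, the p38 target Mapkapk2 was higher at both times (0.75 and 0.92) and Mknk2 was lower at both (-0.80 and -1.86), with Mapkapk3 also higher at 4 h (0.61). Of 5 Sprouty and Spred genes, whose products restrain the ERK pathway upstream, 1 was higher at both times, Spred1 (1.85 and 1.73, adjusted p = 0.000175 and 0.000132 by limma). Of 9 other phosphatases that act on MAP kinases, 0 passed at 2 h. Ppp2cb, a catalytic subunit of PP2A (0.75), and Ppm1b, a PP2C-type phosphatase (0.53), were higher at 4 h. Among the 9 were further DUSP-family MAP kinase phosphatases, Dusp8, Dusp9 and Dusp10, which differed by -0.21, -0.30 and 0.038 at 2 h. Dusp10 differed by -0.98 at 4 h (adjusted p = 0.0745 by limma). Its single arrays moved by -1.78 in wild-type and by -0.17 in KO cells from 0 h to 4 h. Of 12 measured atypical DUSP genes and their relatives, 1 was higher at 2 h, Dusp11 (0.69), and 2 were lower at both times, Ssh2 (-1.89 and -1.98) and Dusp22 (-0.69 and -1.28). For comparison with these 4 lists, the 2 h test called 3.96% of all genes as risen and 2.89% as fallen. In the 4 h test, 7.76% of all genes had risen and 7.61% had fallen. The list medians at 2 h were 0.11, 0.039, 0.038 and -0.013. No gene of these 4 lists passed the genotype test, against 1.95% of all genes in either direction. With the mean of all probe sets, the calls of Mknk2 and Dusp11 at 2 h and of Mapkapk3, Ppp2cb and Ppm1b at 4 h ended.

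Of 17 transcription-related genes known to respond to ERK, 6 were higher and 2 lower at 2 h, against 3.96% and 2.89% of all genes, with a list median of 0.33. The rise was 3.01 for Phlda1, 1.47 for Ier3, 1.39 for Fosl2 and 1.28 for Fosl1, and the genes that fell were Fos (-1.09) and Jun (-1.05). At 4 h, 6 were higher and 2 lower, against 7.76% and 7.61%, the latter Fos (-1.39) and Egr1 (-0.64). In the genotype test, 0 of 17 were higher and 2 lower in KO cells, against 1.95% of all genes in either direction: Ier3 (-1.08, adjusted p = 0.00647 by limma) and the zinc-finger gene Egr1 (-1.06, adjusted p = 0.0122), with a list median of -0.32 beside -0.011 over all genes. Of 12 genes known to respond to CREB, 4 were higher and 1 lower at 2 h (Pde4b by 3.70, Nr4a3 by 1.47, Fosl2 by 1.39 and Creb1 by 0.65; Atf3 by -0.82). At 4 h, 3 were higher, Pde4b (3.39), Fosl2 (1.54) and Nr4a3 (1.33), and 2 were lower, Sik1 (-0.63) and Nr4a2 (-0.57). These counts stand against the same shares of all genes. With the mean of all probe sets, the 2 h calls of Nr4a3 and Creb1 and the 4 h calls of Sik1 and Nr4a2 ended. None of those 12 passed the genotype test, and their list median was -0.068.

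Genes with the most similar courses were named by the smallest root-mean-square difference between profiles centred on their own means over the 6 arrays, for the 5 members that ranged over at least 1. For Dusp16 these were Birc3, Top1 and Tank, which differed by 0.097, 0.12 and 0.14. For Dusp4 they were Ahr, Nr4a3 and Klf7 (0.14, 0.16 and 0.19), and for Dusp5 they were Ccl7, Ccl2 and E2f8 (0.29, 0.30 and 0.30), a wider distance. For Dusp1 they were Pnrc1, Sh2b2 and Serpinb8 (0.077, 0.095 and 0.10). For Dusp3 they were 1110032A03Rik, Sdc3 and Pros1 (0.028, 0.049 and 0.050), the closest match of the 5. Nr4a3 read 3.99, 5.72 and 5.62 in wild-type cells and 4.15, 5.35 and 5.19 in KO cells; it was picked for its likeness to Dusp4, so its course is a description only.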

How the data were processed

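The submitters prepared RNA with Trizol and biotin-labelled amplified cRNA, per the labels' protocols. The authors' deposited values are log2 expression per probe set, produced by RMA according to the submitters' processing notes; its version, the probe definition and any genome build are not stated there. Over 45101 probe sets they ran from 2.26 to 14.2. RMA equalizes the arrays' distributions, so a shift shared by most genes would not be seen. Precision is limited by the number of arrays.

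The platform annotation gave names: 34958 probe sets had 1 symbol, 932 several and 9211 none. The probe set of highest mean stood for each of 18194 genes. Differences were tested with limma 3.58.1 in R 4.3.3 (lmFit, eBayes, Benjamini-Hochberg over 13587 genes above the floor, threshold 0.05). The additive fit left 2 residual degrees of freedom, to which eBayes added 6.35; the interaction fit left 1 and added 11.5. The scripts were tested on simulated data. Single arrays were compared by a log2 difference of 1. The promoter windows and their build come from RefSeq tables.

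The members and lists were chosen with earlier results of these data known. Named genes are the members with all their probe sets, Akirin2 and Lyz2, up to 4 genes each way of a list past a test, and the 3 nearest profiles. Alternatives were the floor, the mean of probe sets, no cross-hybridising probe sets, quantile normalization again, centring, eBayes with trend and robust, other size rules, and leaving out each time; leaving out each array was chosen after seeing the data.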

Additional observations from a re-analysis of the deposited data

Results flagged for a closer look

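The response of Dusp7 at 2 h had opposite signs in the genotypes: the single arrays moved by -0.61 in wild-type and by 0.20 in Akirin2 KO cells, a difference of 0.81. The interaction over both LPS times was 0.83 and did not pass in limma (adjusted p = 0.203), and no test of the 2 h difference alone was possible with 1 array per condition. The chosen probe set, 1427416_x_at, is of the kind left out in the setting without cross-hybridising probe sets. A second probe set of Dusp7, 1452097_a_at, moved by -0.40 in wild-type and by 0.25 in KO cells at 2 h. The third, 1460393_a_at, near the array median, moved by 0.021 and 0.34, so its signs were not opposite.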

How the results depend on the processing

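Over the alternatives fixed with the design, 295 member estimates kept their direction and side of the threshold, 14 passed only there, 6 no longer passed and 8 changed sign. The calls that Dusp4 and Dusp16 rose at 2 h and 4 h, and that Dusp5 rose at 2 h, held in all of them and without any 1 array. Centring moved the median change of all genes at 4 h in wild-type cells from -0.064 to 0.10. The count of members lower at 4 h than at 2 h was 0 with no floor, with the mean of probe sets, with quantile normalization again, with centring or with the floor at the 75th percentile, 3 with eBayes trend and robust, and 2 without the 0 h arrays. The count lower at 4 h than at 0 h was 0 with the mean of probe sets, and that lower at 2 h was 2 with eBayes trend and robust. In Akirin2 KO, 2 members were higher with eBayes trend and robust and without the 0 h arrays, and 1 (Dusp5) without the 4 h arrays; 1 (Dusp16) was lower with the 75th percentile floor, eBayes trend and robust, and without the 0 h arrays. Leaving out each array in turn gave 0 to 2 lower at 2 h, 0 to 3 lower at 4 h, 0 to 2 lower from 2 h to 4 h, 0 to 2 higher in KO and 0 to 1 lower in KO.

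Between single arrays, the wild-type 4 h count lower was 0, and the KO 4 h count higher 1, with the mean of probe sets, with centring and at 3-fold. At 1.5-fold, 3 were lower in wild-type at 2 h and 3 at 4 h, 2 from 2 h to 4 h, and 1 in KO at 4 h; between genotypes, at 2 h as at 4 h, 1 was higher and 1 was lower. At 3-fold, 0 were higher in KO at 2 h, 0 were lower from 2 h to 4 h in KO, and 0 were apart at 0 h. Signs changed for small differences: with the mean of probe sets, Dusp3 at 2 h was 0.020, Dusp16 from 2 h to 4 h was -0.18 and Dusp3 in KO was -0.20. Dusp7 in KO was 0.013 with quantile normalization again, 0.017 with centring and 0.27 without the 0 h arrays, and Dusp3 in KO was -0.018 without the 2 h and -0.091 without the 4 h arrays. Leaving out 1 array gave ranges of -0.62 to 0.21 for Dusp7 at 2 h, -0.15 to 0.27 for Dusp7 in KO and -0.091 to 0.13 for Dusp3 in KO. From 2 h to 4 h they were -0.23 to 0.11 for Dusp2, -0.016 to 0.11 for Dusp16, -0.58 to 0.10 for Dusp4 and -0.084 to 0.30 for Dusp6. The causes were not tested. Of the list genes' calls, 351 kept and 42 lost their side of the threshold, and 408 list counts stayed within 1.5 times while 60 did not. The interaction was not fitted without an array or a time. Without a 2 h or 4 h array, or without either of those times, no residual degrees of freedom remain. Without a 0 h array or the 0 h time, the interaction cannot be estimated apart from the genotype difference. No paired analysis was possible because the labels give no replicate numbers; the additive fit compares LPS times within genotype and genotypes within time. With 1 array each, differences between mice are not measured, and values near the array median, such as those of Dusp2, are at the limit of the signal.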
